A study of Homo sapiens with 2 samples.

Results

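YAP, its paralog TAZ (gene WWTR1), the TEAD transcription factors and genes they drive were read out in PLC, a cell line from human liver cancer, with and without added PRSS35. The 10 genes were listed by name: the coactivators YAP1 and WWTR1, the DNA-binding factors TEAD1 and TEAD4, the targets CTGF, CYR61 and ANKRD1, the target genes AMOTL2 and LATS2 that restrain YAP, and the LIM protein gene AJUBA. All 10 were found under their own name in both libraries, among 26257 named genes. The study had 1 library of PLC cells stably carrying an empty vector (EV), labelled WT with no treatment, and 1 of PLC cells with stable over-expression of PRSS35, a secreted serine protease family member, also with no treatment. According to the study's methods, stable cells were made by lentiviral infection and puromycin selection. The growth medium held 10% FBS, and neither cell density at harvest nor clonality was given in the sources used here. Since each condition had 1 library, no difference could be checked against replicates, and no test was made. In bulk RNA, fewer cells that express a gene and less RNA per cell cannot be told apart.

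In the Hippo pathway, a kinase cascade that ends in LATS kinases phosphorylates YAP and TAZ, which are then kept out of the nucleus. When cells are sparse, spread or under tension, YAP and TAZ stay nuclear, bind TEAD factors and switch on genes such as CTGF, CYR61 and ANKRD1, and dense cultures show the opposite. In liver this pathway limits organ size, and active YAP drives liver tumors in mice. Much of the control lies in phosphorylation and localization of the proteins, which RNA levels of YAP1 and WWTR1 do not show.

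The TEAD motif was looked for in promoters, because the targets are thought to be driven through it. The letters GGAATG, or CATTCC on the other strand, were searched in the 250 bases before each start site that RefSeq lists on GRCh38.p14. Promoters of 7 members were matched, with 10 start sites, while CYR61, TEAD1 and TEAD4 were not matched. The motif was present at 5 of the 10 start sites, in YAP1, CTGF, ANKRD1, AMOTL2 and AJUBA, and in 11.9% of all 35116 promoters. CTGF held 3 copies, starting 169, 104 and 95 bases before the start site, and 0.0826% of all promoters held as many. ANKRD1 held 2 copies, and 0.940% of all promoters held at least 2. ANKRD1 also held 1 copy of the AP-1 motif TGANTCA, which reads alike on both strands and was present in 6.57% of all promoters. None of the windows of WWTR1 and LATS2 held GGAATG on either strand. A match describes the letters only. The CTGF stretch is shown since it holds 3 copies in a gene whose level hardly differed, and the 30-base stretches around the other copies are shown for comparison, with the motif in capitals and all in the direction of the gene. The CTGF stretch is chr6:131951423-131951572 on the minus strand, and those of ANKRD1 are chr10:90921290-90921319 and chr10:90921198-90921227 on the minus strand. AMOTL2 is shown at chr3:134374499-134374528 and AJUBA at chr14:22976884-22976913, both on the minus strand, and YAP1 at chr11:102110273-102110302 on the plus strand.
CTGF: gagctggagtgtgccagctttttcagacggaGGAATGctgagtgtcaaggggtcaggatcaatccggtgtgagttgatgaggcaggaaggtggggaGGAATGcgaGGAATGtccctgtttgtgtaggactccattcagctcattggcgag
ANKRD1, farther copy: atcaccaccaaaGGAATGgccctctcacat
ANKRD1, nearer copy: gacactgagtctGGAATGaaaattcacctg
AMOTL2: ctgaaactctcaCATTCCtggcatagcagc
AJUBA: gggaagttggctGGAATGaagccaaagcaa
YAP1: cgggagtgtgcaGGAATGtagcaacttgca

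Levels are given as FPKM, in which the authors divided fragments by transcript length and by the mapped total, so that genes can be compared within a library. The brackets after a level hold the lower and upper bounds that Cufflinks set around it. They cover error within a library, not the variation between cultures. Read totals were not used here. At the 210 loci where it could be read from the bounds, a single fragment was worth nearly the same FPKM in PRSS35 as in EV (median ratio 0.999), although FPKM summed over all loci differed. PRSS35 itself was at 0.643 FPKM (0.445 to 0.841) in EV and 1836 FPKM (1759 to 1912) in PRSS35, as the labels say. Of 6 hepatocyte genes, SERPINA1 (2528 and 4239 FPKM) and APOA1 (576.2 and 493.6 FPKM) were abundant in EV and PRSS35. ALB, which encodes albumin, was low at 4.05 and 5.21 FPKM, and TTR lower at 1.56 and 1.61 FPKM. Between these were AFP, at 18.9 and 17.7 FPKM, and HNF4A, at 41.2 and 47.7 FPKM. The fibroblast markers COL3A1, DCN and LUM, the endothelial marker KDR and the leukocyte markers PTPRC and CD3E were listed at 0 in both libraries. The 0 of COL3A1 is less sure, since in both libraries its locus was assembled from reads and joined with other genes. The summed level of the 6 fibroblast markers was 1.75 FPKM in EV and 2.03 FPKM in PRSS35, and that of the 4 endothelial markers was 0.0373 and 0.0307 FPKM. The 4 leukocyte markers summed to 391.3 and 381.6 FPKM, nearly all of it from CD68, read at a locus joined with other genes, and from LYZ.

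Changes are log2((PRSS35 FPKM + 1)/(EV FPKM + 1)), followed by the interval that the bounds of both libraries imply. A gene was called at a 2-fold change on this scale. None of the 10 members was called in either direction. Among all 11118 expressed genes, those with a mean of at least 1 FPKM, 2.73% were called higher and 2.48% lower, so 0 of 10 lies near that background. All 10 members were among the expressed genes. Their median log2 change was 0.01, against 0.06 for all expressed genes, and they ran from -0.60 for ANKRD1 to 0.21 for LATS2. A second, weaker criterion was whether the bounds of a gene in EV and PRSS35 stayed apart. This held for 4 members, with CYR61, TEAD4 and ANKRD1 lower and LATS2 higher in PRSS35, although CYR61 and TEAD4 were above 0 after division by the summed FPKM of all loci. It also held for 25.1% of expressed genes in the higher and 15.5% in the lower direction, 40.6% in all. A share of 4 in 10 is thus that of the background for both directions together. By direction it held for 3 lower and 1 higher of the 10 members, the reverse order of the background, in few genes and without a test. The 1 higher member, LATS2, cleared by no more than 0.0022 FPKM. For the other 6 members the bounds overlapped.

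**Figure D1:**
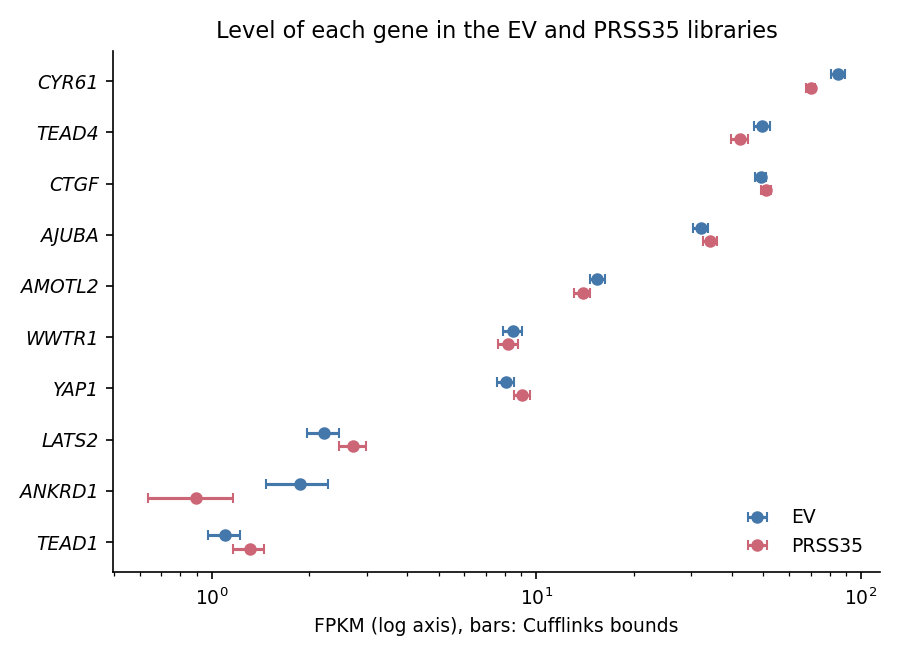
FPKM of each of the 10 genes (log axis) in the EV library (blue) and the PRSS35 library (red), with the Cufflinks bounds as bars and genes sorted by EV level. The genes span from 1.10 FPKM (TEAD1) to 85.0 FPKM (CYR61) in EV, and the points of a gene lie close together except for ANKRD1, at 1.87 and 0.898 FPKM.

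The members covered a wide range of levels and kept much the same order in both libraries. In EV the order was CYR61, TEAD4, CTGF, AJUBA, AMOTL2, WWTR1, YAP1, LATS2, ANKRD1 and TEAD1, and the highest level was 77.3 times the lowest. The neighbors TEAD4 and CTGF, WWTR1 and YAP1, and LATS2 and ANKRD1 had overlapping bounds in EV, so their order is not resolved. In PRSS35 the order was CYR61, CTGF, TEAD4, AJUBA, AMOTL2, YAP1, WWTR1, LATS2, TEAD1 and ANKRD1. There, only YAP1 and WWTR1 overlapped among neighbors.

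The coactivators were expressed at like levels. YAP1, the coactivator that Hippo signaling restrains, lies on chr11:101981192-102104154 (hg19) and was at 8.06 FPKM (7.57 to 8.56) in EV and 9.06 FPKM (8.55 to 9.58) in PRSS35. Its log2 change was 0.15 (0.04 to 0.26), and the bounds of the libraries overlapped by 0.011 FPKM. WWTR1, which encodes TAZ, lies on chr3:149235022-149421060 and was at 8.47 FPKM (7.88 to 9.06) in EV and 8.20 FPKM (7.62 to 8.78) in PRSS35. This is a log2 change of -0.04 (-0.17 to 0.09), with bounds that overlap over most of their width. WWTR1 was at 1.05 times the level of YAP1 in EV and at 0.905 times in PRSS35. Of the 50-base stretches in annotated transcripts, 8.72% for YAP1 and 8.67% for WWTR1 also occur, on either strand, in transcripts of other genes. For WWTR1 most of these are in its antisense gene WWTR1-AS1, which is listed at 0 in both libraries, and the library kit does not keep strand.

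TEAD4 was the most abundant TEAD factor and TEAD1 the least. TEAD4, on chr12:3068478-3149842, was at 49.6 FPKM (46.8 to 52.4) in EV and 42.3 FPKM (39.7 to 44.9) in PRSS35, a log2 change of -0.22 (-0.34 to -0.11) that became 0.47 after division by the summed FPKM of all loci. The PRSS35 value was 0.853 times the EV value (0.785 to 0.927), and the bounds were 1.9 FPKM apart. TEAD1, on chr11:12695969-12966284, was at 1.10 FPKM (0.975 to 1.22) in EV and 1.31 FPKM (1.16 to 1.45) in PRSS35. Its log2 change of 0.14 (0.01 to 0.26) came with overlapping bounds. With TEAD2 and TEAD3, which bind the same motif, the family summed to 99.4 FPKM in EV and 90.3 FPKM in PRSS35. TEAD4 made up 49.9% of this sum in EV and 46.9% in PRSS35, TEAD2 24.8% and 28.8%, TEAD3 24.2% and 22.9%, and TEAD1 1.11% and 1.45%. TEAD3 was read at a locus joined with other genes, so the sum and all shares depend on a value that may include them. Only 0.280% of the 50-base stretches of TEAD4 are shared, all with TEAD3, and none of those of TEAD1.

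The classic targets differed from each other in the size and sign of their values. The sign of CYR61 turned only under division by the sum over all loci, and not under the other scalings tried. Relative to the median of expressed genes under that division, CYR61 was at -0.25. CTGF encodes a secreted matricellular protein of the CCN family and lies on chr6:132269317-132272518. It was at 49.1 FPKM (47.3 to 50.8) in EV and 51.1 FPKM (49.3 to 52.8) in PRSS35, and its log2 change of 0.06 (-0.01 to 0.13) was close to the median of all expressed genes. Its bounds imply 3191 fragments in EV and 3324 in PRSS35, so the value is among the most precise here. Of its 50-base stretches, 5.77% also occur in LINC01013. CYR61, another secreted CCN protein gene, lies on chr1:86046444-86049648 and was at 85.0 FPKM (80.8 to 89.2) in EV and 69.9 FPKM (67.8 to 72.0) in PRSS35. This is 0.823 times the EV value (0.776 to 0.872) and a log2 change of -0.28 (-0.36 to -0.19), or 0.42 after division by the summed FPKM of all loci. The bounds were 8.7 FPKM apart. CYR61 was thus at 1.73 times the level of CTGF in EV and at 1.37 times in PRSS35.

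ANKRD1, which encodes a nuclear and sarcomeric ankyrin repeat protein, had the largest difference of the 10 members on the deposited scale. After division by the summed FPKM of all loci it was the only member below 0, at -0.20. The median of expressed genes was then 0.68, and relative to it ANKRD1, at -0.88, again differed most of the 10. The gene lies on chr10:92671857-92681032 and was at 1.87 FPKM (1.47 to 2.28) in EV and 0.898 FPKM (0.638 to 1.16) in PRSS35. The log2 change was -0.60 (-0.88 to -0.31) and the bounds were 0.31 FPKM apart. On FPKM itself, with no pseudocount, the PRSS35 value was 0.480 times the EV value (0.334 to 0.689), which is past 2-fold. The bounds imply only 84.9 fragments in EV and 47.5 in PRSS35, so ANKRD1 is the least precisely measured member. At 1.5-fold it was the only member called, and 4.27% of expressed genes were called lower at that threshold.

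The genes that restrain YAP and are themselves induced by it, and AJUBA, differed little between the libraries. AMOTL2, an angiomotin family scaffold that holds YAP at junctions, lies on chr3:134074187-134094259 and was at 15.4 FPKM (14.6 to 16.3) in EV and 13.9 FPKM (13.1 to 14.6) in PRSS35, a log2 change of -0.14 (-0.25 to -0.04), or 0.52 after division by the summed FPKM of all loci. LATS2, a kinase that phosphorylates YAP and TAZ, lies on chr13:21547176-21635722 and was at 2.22 FPKM (1.96 to 2.47) in EV and 2.73 FPKM (2.47 to 2.99) in PRSS35. Its log2 change was 0.21 (0.06 to 0.37), and the bounds were apart by no more than 0.0022 FPKM. AJUBA, a LIM protein that binds and inhibits LATS kinases, lies on chr14:23440383-23451851. It was at 32.1 FPKM (30.4 to 33.7) in EV and 34.2 FPKM (32.5 to 36.0) in PRSS35, a log2 change of 0.09 (-0.01 to 0.19). The bounds overlapped for AMOTL2, by 0.021 FPKM, and for AJUBA.

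**Figure D2:**
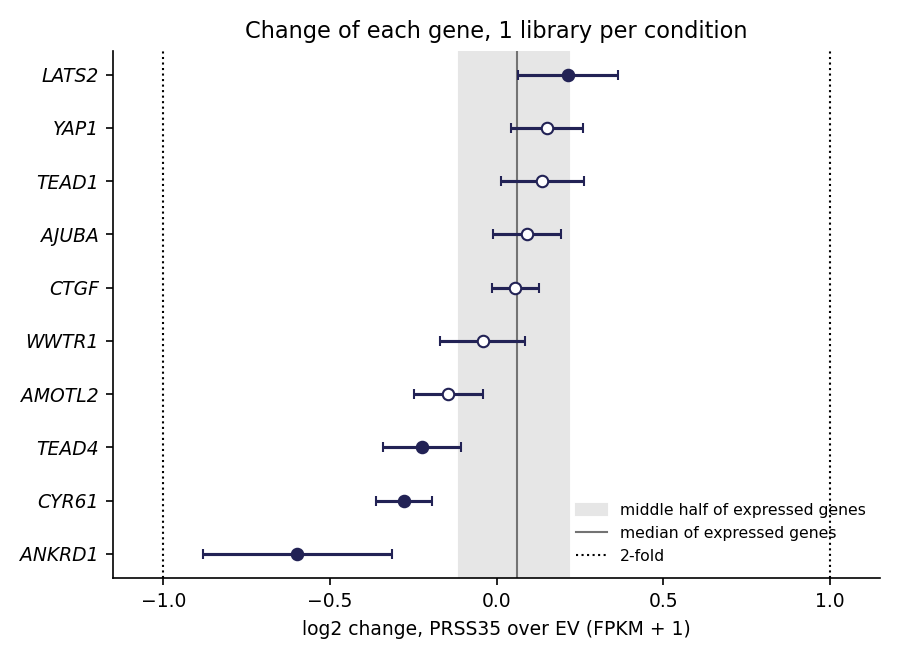
log2 change of each gene (PRSS35 over EV, FPKM + 1) with the interval implied by the Cufflinks bounds. Filled points mark genes whose bounds in the 2 libraries stay apart, the gray band is the interquartile range of all expressed genes (-0.11 to 0.22) and dotted lines mark 2-fold. No gene reaches 2-fold, and 6 of the 10 lie inside the gray band. WWTR1, AMOTL2, TEAD4 and CYR61, left of 0 here, lie above 0 after division by the summed FPKM of all loci. That division also raises the median of expressed genes to 0.68, and these genes stay below it.

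Of the scalings tried, only division by the sum over all loci turned the direction of TEAD4, CYR61, AMOTL2 and WWTR1. With the sum over named loci their log2 changes were -0.181, -0.235, -0.105 and -0.003. They also stayed below 0 when centred on the median of expressed genes or scaled by the upper quartile. Summed over all loci, FPKM was higher in EV than in PRSS35 by 0.71 on the log2 scale, and over named loci by 0.04. Dividing FPKM by the sum over all loci raised the median log2 change of expressed genes to 0.68 and the share of higher genes among the 2-fold calls from 52.3% to 87.6%. The log2 changes of TEAD4 (0.47), CYR61 (0.42), AMOTL2 (0.52) and WWTR1 (0.59) were then above 0, as were those of all other members except ANKRD1 (-0.20). Relative to the shifted median they were -0.20 for TEAD4, -0.25 for CYR61, -0.15 for AMOTL2, -0.08 for WWTR1 and -0.88 for ANKRD1.

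Cufflinks had rebuilt some of these loci from the reads, separately in each library. CTGF, WWTR1 and TEAD1 kept their annotated locus in both libraries, YAP1, TEAD4 and AMOTL2 were assembled in both, and CYR61, ANKRD1, LATS2 and AJUBA were assembled in EV and annotated in PRSS35. Of the last 4, CYR61 and ANKRD1 were higher in EV and LATS2 and AJUBA in PRSS35, though CYR61 was not higher in EV after division by the summed FPKM of all loci. Among 1088 expressed genes assembled in EV only, 47.9% were lower in PRSS35, against 43.3% of the 6496 assembled in both. The share was 34.8% for the 2382 annotated in both and 23.1% for the 1152 assembled in PRSS35 only. The bounds stayed apart in the lower direction for 22.9%, 19.1%, 6.80% and 5.90% of these classes, in this order. In the higher direction they did so for 16.5%, 24.7%, 23.5% and 39.3%. For CYR61 the bounds imply 1628 fragments in EV and 4401 in PRSS35, although its FPKM was higher in EV, so that implied fragments of an assembled locus cannot be read as counts. The part of assembly in the differences of CYR61 and ANKRD1 was not tested. The 3 members annotated in both libraries had log2 changes between -0.04 and 0.14, all with overlapping bounds.

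**Figure D3:**
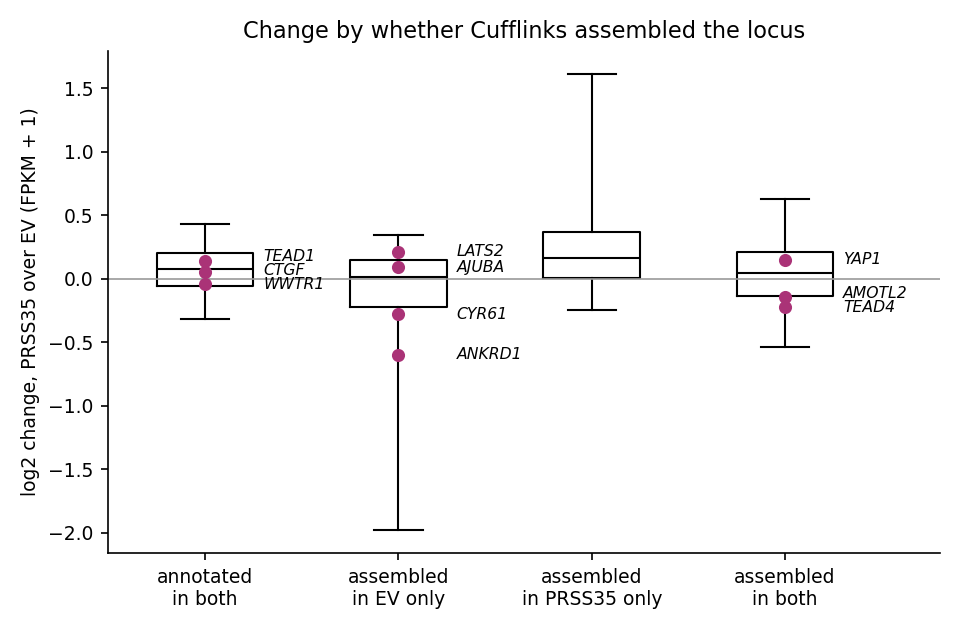
log2 change (PRSS35 over EV, FPKM + 1) of all expressed genes by whether Cufflinks assembled their locus in neither, either or both libraries, as boxes from the first to the third quartile with whiskers from the 5th to the 95th percentile, and the 10 genes as points. CYR61 and ANKRD1 lie below the box of genes assembled in EV only, and the 3 genes annotated in both lie inside their box. Division by the summed FPKM of all loci would put CYR61, AMOTL2, TEAD4 and WWTR1 above 0. It would also raise the median of expressed genes to 0.68, and these genes would stay below that median.

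Other genes of the pathway were grouped by role in lists drawn up by name. Of 22 genes of the Hippo kinase cascade and its regulators, 16 were expressed, and 0 were called at 2-fold in either direction, with a median log2 change of 0.07. The most abundant were RASSF1, a scaffold of the MST kinases, at 36.7 FPKM in EV and 28.4 FPKM in PRSS35, and the casein kinase genes CSNK1E, at 33.1 and 42.1 FPKM in a joined locus, and CSNK1D, at 31.9 and 34.1 FPKM. The bounds stayed apart for 4 of the 16 in the higher and 1 in the lower direction, beside 25.1% and 15.5% of all expressed genes.

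Among the other TEAD factors and their cofactors, 3 of 9 genes were expressed and 0 were called, with a median log2 change of 0.07. VGLL4, a protein that competes with YAP for TEAD, was at 9.68 FPKM (8.96 to 10.4) in EV and 13.1 FPKM (12.1 to 14.0) in PRSS35, a log2 change of 0.40. TEAD2 was at 24.7 and 26.0 FPKM, and TEAD3, read at a joined locus, at 24.0 and 20.7 FPKM. VGLL1, VGLL2, VGLL3 and RUNX2 were listed at 0 in both libraries.

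Of 6 LIM protein genes related to AJUBA, 5 were expressed and 0 were called, and the median log2 change was -0.06. After division by the summed FPKM of all loci it was 0.47, beside 0.68 for all expressed genes. WTIP, a close relative of AJUBA, was at 31.5 FPKM (29.6 to 33.4) in EV, where its locus was assembled, and 18.4 FPKM (17.3 to 19.5) in PRSS35, where it was not. Its log2 change was -0.75. ZYX, which encodes the focal adhesion protein zyxin, was at 181.0 and 133.6 FPKM, a log2 change of -0.44, and FBLIM1 at 15.1 and 18.2 FPKM.

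Of 22 further YAP and TAZ targets, 15 were expressed and 0 were called at 2-fold, with 8 higher, 7 lower and a median log2 change of 0.06, close to that of all expressed genes. IGFBP3, a secreted IGF-binding protein, was at 22.4 FPKM (21.0 to 23.9) in EV and 35.3 FPKM (33.3 to 37.3) in PRSS35, a log2 change of 0.63 at a locus annotated in both libraries. NT5E, the ectonucleotidase CD73, was at 0.940 FPKM (0.637 to 1.24) in EV and 1.91 FPKM (1.46 to 2.35) in PRSS35, a log2 change of 0.58. On FPKM itself its ratio was 2.03 (1.36 to 3.02), past 2-fold, from 38.6 and 73.0 implied fragments. RBMS3, below a mean of 1 FPKM and so not counted among the 15, went the other way. It was at 1.02 FPKM (0.709 to 1.33) in EV and 0.197 FPKM (0.0301 to 0.364) in PRSS35. Its ratio was 0.193 (0.0784 to 0.475), from 43.1 and 5.57 implied fragments at a locus assembled in both libraries. The most abundant were TNFRSF12A, a TWEAK receptor, at 492.3 and 442.2 FPKM, GADD45B at 107.2 and 111.5 FPKM, and BIRC5, which encodes survivin, at 77.5 and 92.0 FPKM. The bounds stayed apart for 5 of the 15 in the higher and 3 in the lower direction, again beside 25.1% and 15.5% of all expressed genes.

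Genes of SRF, MRTF and the actin cytoskeleton, which like YAP follow cell spreading and tension, had a median log2 change of -0.14 over 10 expressed of 15 listed. After division by the summed FPKM of all loci the median was 0.57, beside 0.68 for all expressed genes. On the deposited scale 7 were lower and 3 higher. Of all expressed genes 39.8% were lower. The bounds stayed apart for 3 of the 10 in the higher and 5 in the lower direction, beside 25.1% and 15.5% of all expressed genes. TAGLN, which encodes transgelin, was the only expressed gene past 2-fold. It is listed at 3.09 FPKM (2.41 to 3.78) in EV, from 80.8 implied fragments, and at 0 in PRSS35, where Cufflinks assembled its locus. This 0 is thus less sure, and the part of assembly in it was not tested. The actin genes ACTB (3320 and 3065 FPKM) and ACTG1 (2753 and 2468 FPKM) had log2 changes of -0.12 and -0.16. MYL9, a myosin light chain gene, was at 194.9 and 155.7 FPKM, a log2 change of -0.32, and TPM1, a tropomyosin gene, at 33.2 and 47.5 FPKM, a log2 change of 0.50. In the 2 expressed genes of the list that are annotated in both libraries, SRF and VCL, the median was 0.075. None of the 4 other CCN family genes, NOV, WISP1, WISP2 and WISP3, was expressed, and the highest level among them was 0.0331 FPKM, for WISP3 in PRSS35.

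**Figure D4:**
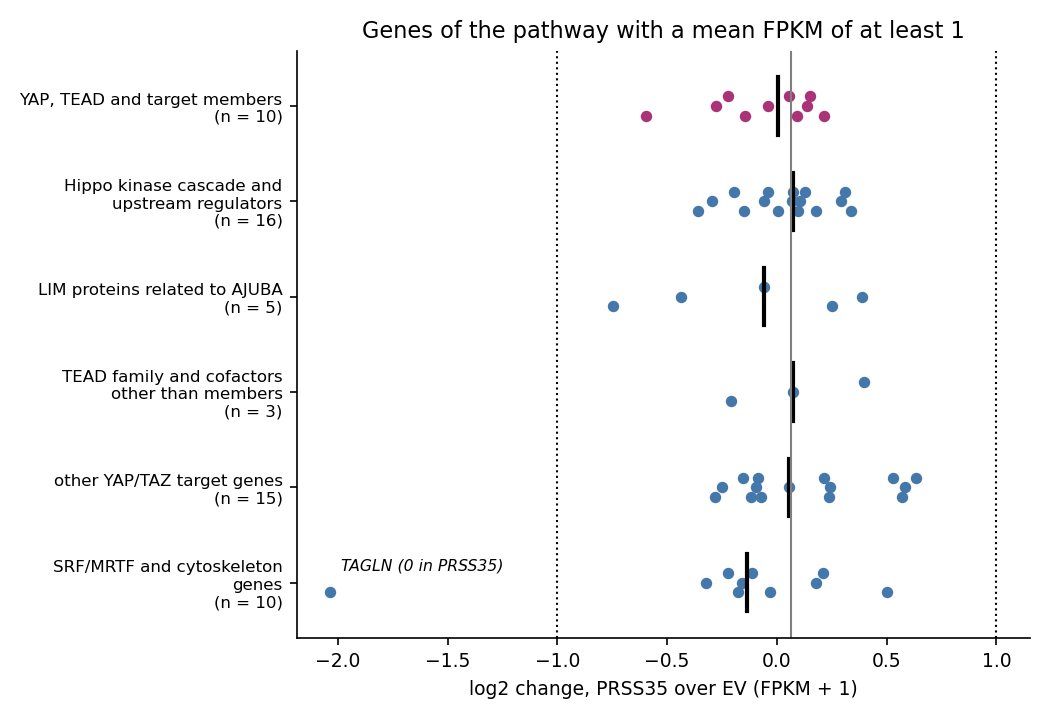
log2 change (PRSS35 over EV, FPKM + 1) of the expressed genes of each list, with the list median as a black bar, the median of all expressed genes (0.06) as a gray line and 2-fold as dotted lines. The list medians lie between -0.14 and 0.07. The lowest becomes 0.57 after division by the summed FPKM of all loci, where the median of all expressed genes is 0.68. TAGLN, listed at 0 in PRSS35 at an assembled locus, is the only point past 2-fold.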

How the data were processed

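RNA of 1 EV and 1 PRSS35 library was sequenced by the authors with a NEBNext Ultra kit. The authors aligned reads to hg19 with TopHat2 (2.1.0 in the submitters' processing notes, which also name Cuffdiff 2.2.1) and estimated levels with Cufflinks. They deposited FPKM per locus with lower and upper bounds. The annotation release is not given in the sources used here. Read counts were not used here.

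A gene's FPKM was summed over loci holding its name, including loci that join several names. Implied fragments were obtained by dividing 2 times FPKM by its distance to the upper bound and squaring. The log2 ratio used a pseudocount of 1 FPKM, and intervals are 2 SD from the bounds. The calling steps were checked on simulated data in which changed genes differed by more than 2-fold, and their recovery was checked only at 5 FPKM or more. Calls near the threshold, low genes and differences in assembly were thus not covered. Positions of loci are those of the files, on hg19. Those of promoters are of GRCh38.p14, from RefSeq.

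The members and lists were chosen with earlier results of these data known. Named beyond the members are, per list, genes past 2-fold, the 3 most abundant and the 2 expressed genes with the largest change. RBMS3, THBS1 and MKL2 were added for their ratios on FPKM itself, once the values were known. The criterion of bounds that stay apart was chosen once the values were known. Alternatives were other pseudocounts, scalings, filters, locus choices and a 1.5-fold threshold. Python 3.11.15, numpy 2.4.6, pandas 2.3.3 and matplotlib 3.10.9 were used.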

Additional observations from a re-analysis of the deposited data

How the results depend on the processing

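The count of members called at 2-fold was 0 in each direction under each of the 12 alternatives in pseudocount, scaling, locus choice and filter. Apart from the other pseudocounts, these kept 1 FPKM, which shrinks the changes of low members, so the steady count is partly set by the scale. With no pseudocount ANKRD1 was past 2-fold, at 0.480 times the EV value. At 1.5-fold 1 member, ANKRD1, was lower. The log2 change of ANKRD1 was below 0 in all 10 alternatives that kept it, from -0.98 with a pseudocount of 0.1 FPKM to -0.20, and that of LATS2 above 0 in 10, from 0.10 to 0.72. Dividing by the sum over all loci gave a median of 0.56 for the members, 0.64 for the Hippo cascade, 0.47 for LIM proteins, 0.76 for TEAD factors and cofactors, 0.67 for further targets and 0.57 for SRF and cytoskeleton genes, which reversed, as did TEAD4 (0.47), CYR61 (0.42) and AMOTL2 (0.52). The cause is the construction, since the median of all expressed genes rose to 0.68. Loci with a single name gave 0.23 for TEAD factors and cofactors. A mean of at least 5 FPKM, which kept 7 members, gave -0.44 for LIM proteins and 0.22 for further targets. Genes annotated in both libraries, which include 3 members, gave 0.22 for further targets and 0.075 for SRF and cytoskeleton genes, reversed, and no value for LIM proteins or for TEAD factors and cofactors. No filter gave -0.03 for SRF and cytoskeleton genes. These lists then held other genes, and the cause was not tested further. Over all genes, 303 higher and 276 lower calls became 192 and 162 with a pseudocount of 5 FPKM, 1273 and 180 with the sum over all loci, 187 and 187 with single names, 202 and 169 at 5 FPKM or more, 201 and 163 above 0 in both libraries, 17 and 15 annotated in both, and 581 and 475 at 1.5-fold. Precision is limited for ANKRD1, whose bounds imply 47.5 fragments in PRSS35. No paired analysis was possible because EV and PRSS35 had 1 library each.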

Other observations

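Biliary and progenitor markers, which rise in hepatocytes when YAP is active and which are also found in some liver cancer lines, were all present in PLC cells. EPCAM, a cell adhesion molecule of biliary and progenitor cells, was at 44.9 FPKM (43.0 to 46.9) in EV and 51.0 FPKM (48.9 to 53.1) in PRSS35. SOX9, a transcription factor of bile duct cells, was at 2.73 FPKM (2.42 to 3.04) in EV and 3.74 FPKM (3.38 to 4.10) in PRSS35, a log2 change of 0.35. The bounds stayed apart for EPCAM and SOX9, as for 25.1% of all expressed genes in the higher direction. The keratin gene KRT19 was lower, at 6.55 FPKM (5.70 to 7.40) in EV and 5.27 FPKM (4.51 to 6.03) in PRSS35, a log2 change of -0.27 (-0.51 to -0.03). KRT7 was at 6.92 FPKM (5.44 to 8.41) and 8.25 FPKM (6.52 to 9.98). Both keratin genes had overlapping bounds. None of the 4 was past 2-fold.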
